A study of Mus musculus with 15 samples.

Results

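*KEAP1* KO #1 was compared with *KEAP1* KO #2 and #3 to describe the functions in which it differs from both in the same direction. The 3 lines are LL2 cells in which *Keap1* was targeted with CRISPR, and each is 1 clone, grown from a single cell sorted for the GFP of the plasmid that carried Cas9 and the guide. The comparison uses 9 of the 15 samples of the series, 3 cultures of *KEAP1* KO #1 against 3 of #2 and 3 of #3 together, chosen by the genotype label. The unedited parental line (LL2 WT, 3 cultures) gives a reference level. LL2 WT and the *NRF2* KO line (3 cultures) also enter the estimate of spread and the choice of genes tested. LL2, here with the label LL2/Luc2, is a Lewis lung carcinoma line from a C57BL/6 mouse, and all lines were grown in DMEM with serum and antibiotics. RNA was measured by mRNA sequencing and deposited as CPM, reads of a gene scaled to a fixed total per sample. Cultures of 1 line are the replicates, so every p-value rests on the spread between cultures of the same line. What belongs to the loss of *Keap1* and what belongs to the founder cell of a clone cannot be told apart.

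KEAP1 is the adaptor that directs the transcription factor NRF2 to a ubiquitin ligase, so that NRF2 is degraded in unstressed cells. When KEAP1 is lost, or when oxidants modify it, NRF2 accumulates and raises genes of glutathione synthesis, detoxification and NADPH supply through antioxidant response elements. A line grown from a single cell also carries whatever that cell had in its genome and chromatin state, which is why several clones are usually studied side by side.

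Between 17270 and 19750 genes per sample were above 0, and Spearman's rho between samples averaged 0.971 for *KEAP1* KO #1 with #2, 0.97 for #1 with #3 and 0.98 for #2 with #3 (9 pairs each, which share samples). Replicates 1 and 2 of *KEAP1* KO #2, and those of #3, were closer to each other than other pairs were. The robust SD of their log2 ratio over genes of at least 300 CPM was 0.0479 and 0.0858, against 0.149 to 0.198 within *KEAP1* KO #1. They differed in values and were kept as separate samples. Transcripts of the mitochondrial genome took 2.91% to 3.5% of the CPM in *KEAP1* KO #1 and 4.31% to 5.07% in #2 and #3. Of the epithelial markers, *Epcam* stayed at or below 0.0485 CPM and *Cdh1* at or below 0.0618 CPM in all 15 samples, and *Esrp1* was listed at 0 throughout. Of the lung epithelial markers, *Sftpa1*, *Sftpd* and *Scgb1a1* were listed at 0 in all samples, *Nkx2-1*, *Foxj1*, *Sftpc* and *Sftpb* reached at most 0.037, 0.0991, 0.422 and 0.837 CPM, and *Napsa* was above 0 in every sample and reached 2.18 CPM in LL2 WT. *Krt18* (234 to 575 CPM) and the mesenchymal filament gene *Vim* (1530 to 5430 CPM) were present in every sample. *Krt18* stood at 234 to 351 CPM in #1, 395 to 424 in #2 and 406 to 484 in #3. *Krt8* stood at 65.1 to 83.6, 165 to 186 and 130 to 152 CPM in this order, while *Krt19*, *Krt7* and *Cldn7* overlapped. The 9 epithelial markers summed to 300.1 to 440.2, 560.8 to 614.8 and 538 to 639.6 CPM, and to 592.6 to 668.5 in LL2 WT. Of the 5 tested, 0 were apart from both other clones by the rule given below. Of the leukocyte markers, *Ptprc* was at most 0.192 CPM in the clones and *Adgre1* at 0, while *Lyz2* reached 2.6 CPM over the 15 samples and *Cd68* ran from 4.78 to 9.19 CPM in #1, 8.81 to 22.5 CPM in #2 and 13.9 to 36.5 CPM in #3.

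*Keap1*, the targeted gene, was lower in all 3 clones than in LL2 WT and less so in *KEAP1* KO #1. It stood at 12.17, 10.8 and 12.5 CPM in *KEAP1* KO #1, at 4.28, 5.01 and 7.29 CPM in #2, at 3.78, 6.13 and 6.83 CPM in #3 and at 24.03, 21.98 and 22.9 CPM in LL2 WT. The 3 samples of #1 lay above all 6 of the other clones and below all 3 of LL2 WT. The log2 difference was 1.12 against #2 (adjusted p = 0.00497) and 1.11 against #3 (adjusted p = 0.00498). Against both together it was 1.12. *Keap1* was no longer apart without replicate 1 (1.03) of *KEAP1* KO #2 or replicate 1 (0.99) of #3. Of the *Keap1* transcript sequence, 9.02% of the 31-base stretches also occur in another gene. The level of an edited transcript does not show whether protein is made.

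A call required a log2 difference over 1 in size and a limma p under 0.05 after Benjamini-Hochberg adjustment, on the log2(CPM + 0.1) scale, which understates the change of genes near 0.1 CPM. A gene was counted as apart from both other clones when it was called in the same direction against #2, against #3 and against their mean. Of 14652 genes tested, 439 were higher (3.0%) and 314 lower (2.14%) in *KEAP1* KO #1 than in the mean of #2 and #3 (5.14% called). Against #2 alone 409 were higher (2.79%) and 262 lower (1.79%), and against #3 alone 381 were higher (2.6%) and 298 lower (2.03%). Between #2 and #3 only 33 and 38 were called (0.485%). Apart from both others in *KEAP1* KO #1 were 242 genes higher (1.65%) and 191 lower (1.3%). The list counts below are to be read beside these shares. Which direction held more genes depended on the scaling, with 215 higher and 247 lower after quantile normalization and 215 and 230 with CPM rescaled by median ratio size factors, and it also turned without *KEAP1* KO #1 replicate 3 (155 and 198). The same rule applied to *KEAP1* KO #2 gave 6 genes higher (0.041%) and 23 lower (0.157%), and to *KEAP1* KO #3 gave 13 higher (0.0887%) and 22 lower (0.15%). These counts share samples, and the difference between them was not tested. In 238 of the 242 and 190 of the 191 the 3 samples of #1 did not overlap the other 6, which over all genes tested was the case for 14.3% (above) and 7.5% (below). The count of higher genes fell to 158 without *KEAP1* KO #1 replicate 1, to 155 without its replicate 3 and to 159 without *KEAP1* KO #3 replicate 2, and that of lower genes to 123 without *KEAP1* KO #1 replicate 1. The call was kept by 120 of the 242 and 98 of the 191 in all 9 fits that left out 1 sample of a *KEAP1* KO clone. In bulk RNA, fewer cells with a transcript and less of it in each cell cannot be told apart.

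**Figure D1:**
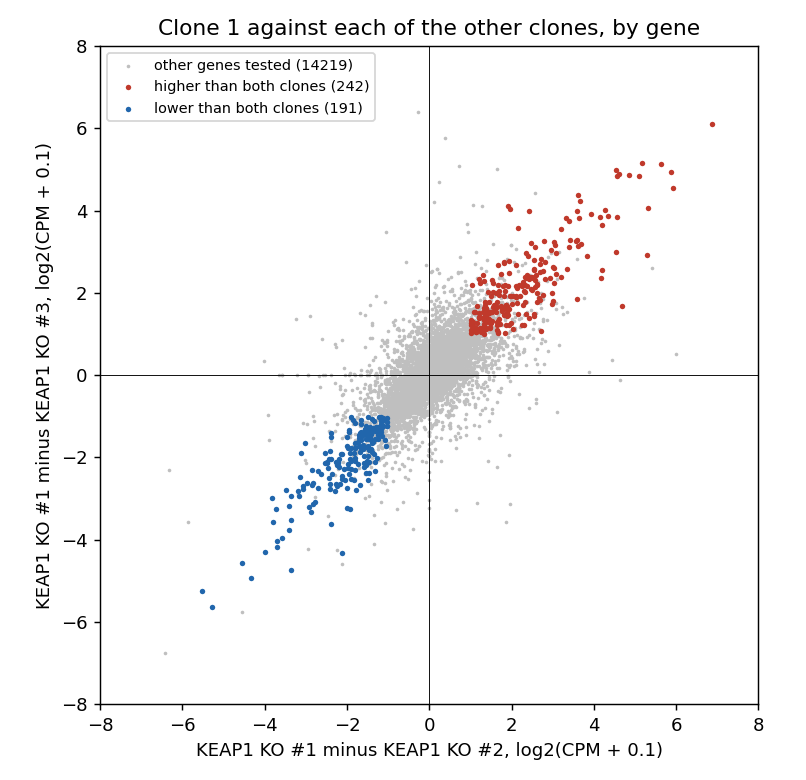
Each point is 1 of the 14652 genes tested, placed by the difference of *KEAP1* KO #1 from *KEAP1* KO #2 (horizontal) and from *KEAP1* KO #3 (vertical) on the log2(CPM + 0.1) scale, as means of 3 samples per clone. The 242 genes higher than both clones (red) and the 191 lower than both (blue) lie in opposite quadrants. Both axes use the same samples of *KEAP1* KO #1.

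Set beside LL2 WT, the genes apart in *KEAP1* KO #1 had medians near the LL2 WT level in #1 and further from it in the other 2 clones. The 242 higher genes had a median log2 difference from LL2 WT of 0.02 in *KEAP1* KO #1, −1.87 in #2 and −1.67 in #3. Of them, 42 were called lower and 48 higher than LL2 WT in #1, while 174 were called lower in #2 and 169 in #3. The 191 lower genes had medians of 0.04, 1.86 and 1.93 in #1, #2 and #3. Of them, 49, 125 and 122 were called higher and 54, 9 and 5 lower than LL2 WT in this order. Over all genes tested, 3.99%, 7.75% and 7.34% were called lower and 4.55%, 5.94% and 6.09% higher than LL2 WT in the 3 clones in this order. The 3 comparisons share the LL2 WT samples, and the choice of genes used the clones' values, so these medians are a description with no test.

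**Figure D2:**
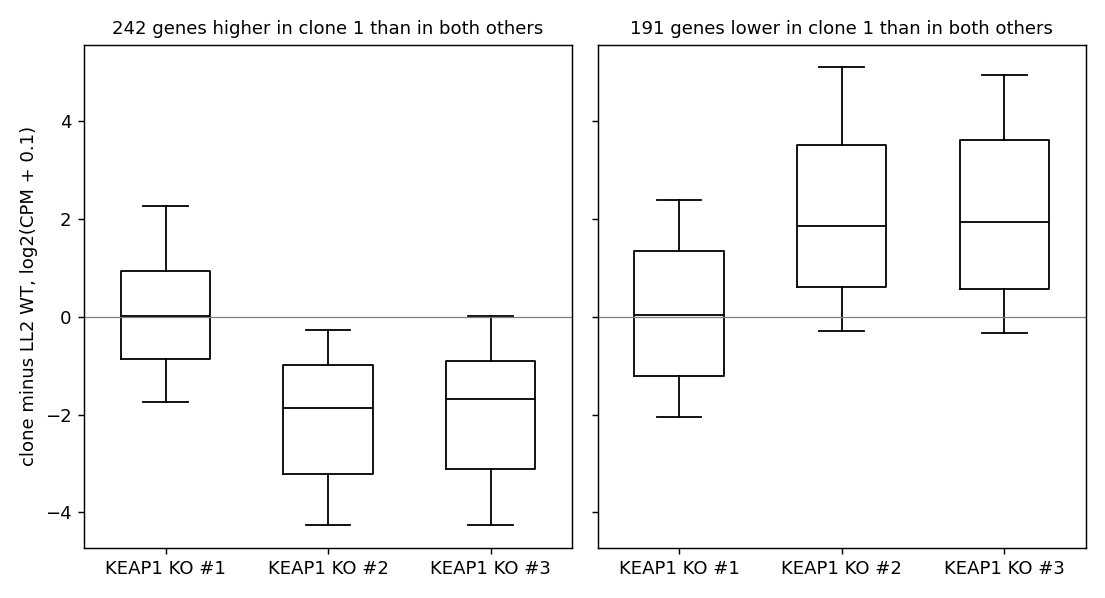
Boxes give the difference of each *KEAP1* KO clone from LL2 WT on the log2(CPM + 0.1) scale for the 242 genes higher (left) and the 191 genes lower (right) in clone 1 than in both others. The line is the median, the box the middle 50% of genes and the whiskers the 10th to 90th percentile. The medians of clone 1 are 0.02 and 0.04, and those of clones 2 and 3 are −1.87 and −1.67 (left) and 1.86 and 1.93 (right).

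Some genes of the extracellular matrix were among the most strongly higher in *KEAP1* KO #1, while the collagen list as a sum overlapped between the clones. Its 44 members, tested or not, summed to 445.9 to 652.5 CPM in #1, 564 to 779.3 in #2 and 458.5 to 684.9 in #3. The 3 chains of collagen VI, which assemble into a beaded filament network around cells, were all apart, and they were the 3 higher of 22 collagen genes tested, with 0 lower (median of the list 0.42, against 0.09 over all genes tested). *Col6a2* (chr10:76595762-76623630) stood at 20.2, 4.61 and 14.2 CPM in *KEAP1* KO #1, against 0.0677 to 0.462 CPM (median 0.155) in the 6 samples of #2 and #3 and 18.1, 14 and 24.6 CPM in LL2 WT. *Col6a1*, its neighbour at chr10:76708792-76726168, stood at 17.5, 3.46 and 14.4 CPM in #1 and 0.188 to 1.21 CPM (median 0.427) in the others, and *Col6a3* at 15.04, 1.11 and 9.34 CPM and 0.0293 to 0.391 CPM (median 0.0795). The samples of #1 lay above the other 6 for each chain, and replicate 2 of #1 was the lowest of its clone for all 3. The differences were 5.38 (SE 0.45, adjusted p = 1.18e-05) for *Col6a2*, 4.0 (SE 0.59, adjusted p = 0.000686) for *Col6a1* and 4.76 (SE 0.74, adjusted p = 0.000987) for *Col6a3*. *Col3a1*, the chain of fibrillar collagen III, was not apart. It stood at 15.7, 6.17 and 15.2 CPM in #1, 2.96, 2.29 and 6.89 CPM in #2, 0.15, 0.129 and 0.695 CPM in #3 and 436, 310 and 563 CPM in LL2 WT, with a log2 difference of 1.63 against #2 (adjusted p = 0.0762) and 5.01 against #3 (adjusted p = 0.000116).

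Thrombospondin 1 had the largest difference of all genes apart. *Thbs1* (chr2:118111876-118127133), which encodes this secreted adhesive glycoprotein and inhibitor of vessel growth, stood at 41.9, 18.01 and 45.8 CPM in *KEAP1* KO #1, 0.107 to 0.963 CPM (median 0.219) in the other 6 samples and 12.8, 14.5 and 37.1 CPM in LL2 WT, a log2 difference of 6.49 (SE 0.5, adjusted p = 6.32e-06). Every sample of #1 lay above all 6 of #2 and #3, and #1 overlapped LL2 WT. *Tgfbi*, a collagen-binding adhesion protein induced by TGF-beta, stood at 24.4, 9.22 and 14.5 CPM against 1.05 to 2.5 CPM (median 1.38), a log2 difference of 3.26 (SE 0.33, adjusted p = 4.28e-05). *Fbn1*, the main microfibril component, stood at 7.84, 3.83 and 5.4 CPM against 0.309 to 1.22 CPM (median 0.764), a log2 difference of 2.87 (SE 0.2, adjusted p = 4.05e-06). *Dpt*, the collagen fibril organiser dermatopontin, stood at 13.8, 9.32 and 6.43 CPM against 0.0639 to 0.579 CPM (median 0.29), a log2 difference of 4.69 (SE 0.41, adjusted p = 1.51e-05). In none of these did the 3 samples of #1 overlap the other 6. Of 31 matrix and crosslinking genes tested, 6 were apart higher and 1 lower (*Nid1*, a basement membrane linker), with a list median of 0.24. The 6 fell to 3 without *KEAP1* KO #1 replicate 1 or *KEAP1* KO #3 replicate 2. The summed level of all 50 members of this list, tested or not, overlapped between the clones. It was 1070 to 1776 CPM in #1, 936.3 to 1451 in #2 and 1249 to 1816 in #3. The fibronectin gene *Fn1* stood at 97.4, 62.01 and 117 CPM against 11.6 to 44.5 CPM (median 13.97), a log2 difference of 2.26, and was no longer apart without replicate 1 (2.19) or 3 (2.06) of *KEAP1* KO #1, replicate 1 (2.17) or 2 (2.15) of #2 or replicate 1 (2.09) or 2 (2.12) of #3. *Nid1* (difference −1.09) was no longer apart without replicate 1 (−0.96) of *KEAP1* KO #1 or replicate 1 (−1.05) or 2 (−1.06) of #2. The smooth muscle actin gene *Acta2* was at 4.02, 0.647 and 0.734 CPM in #1 and 0.11 to 0.221 CPM (median 0.17) in the others (difference 2.38), and was no longer apart without replicate 1 (1.59) of *KEAP1* KO #1, replicate 1 (2.41) or 2 (2.33) of #2 or replicate 2 (2.29) of #3. Of 9 fibroblast or mesenchymal markers tested, *Pdgfrb* and *Acta2* were apart higher and 0 lower, while *Col1a1* stayed at or below 0.239 CPM in all 9 samples of the clones. The summed level of all 11 markers of this list, tested or not, was 1645 to 2059 CPM in #1, 1543 to 1912 in #2, 1597 to 2036 in #3 and 3766 to 6012 in LL2 WT.

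**Figure D3:**
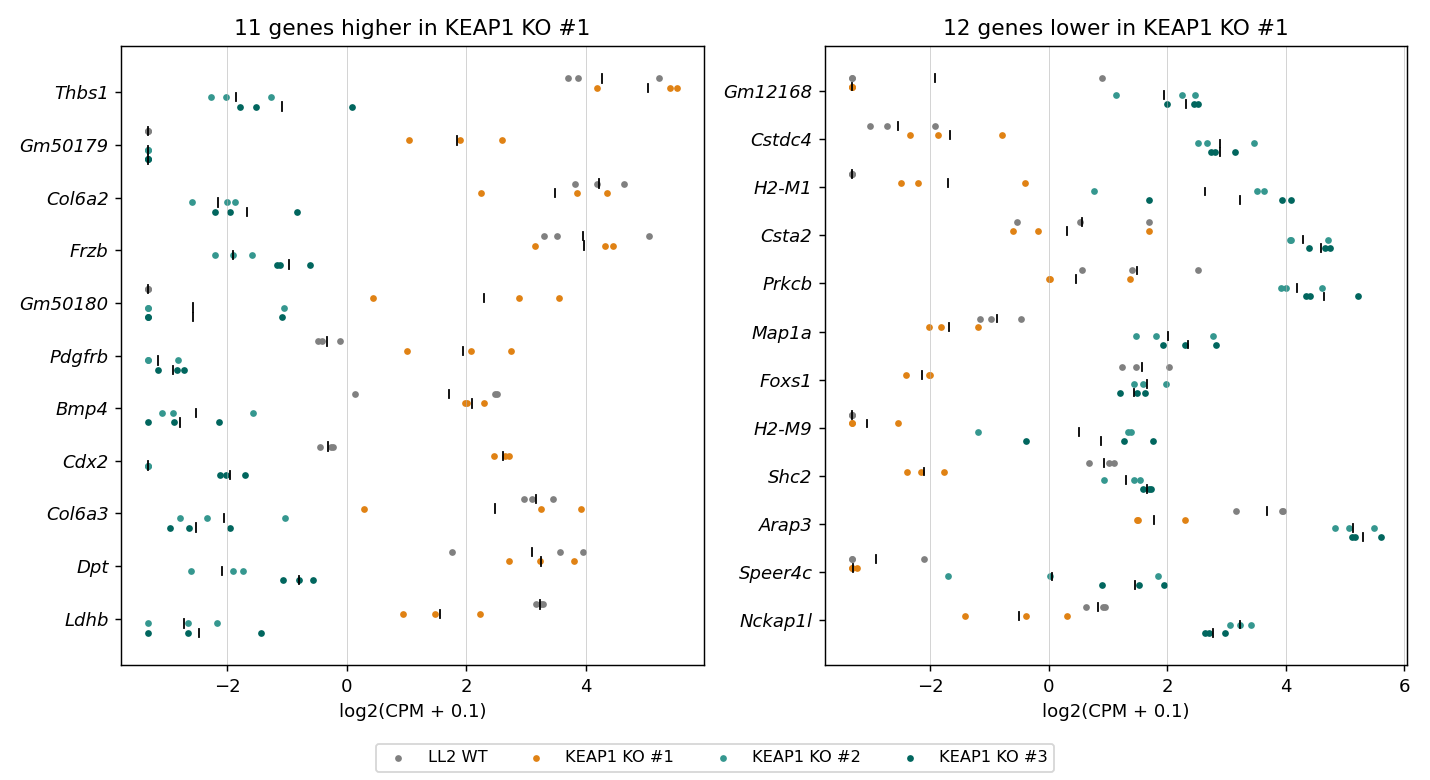
Level of each sample on the log2(CPM + 0.1) scale for 11 of the 12 genes higher (left) and the 12 lower (right) in *KEAP1* KO #1 with the largest differences, ranked by the smaller of the differences from #2 and from #3. Points are samples (3 per line), short black bars are means, and colours mark LL2 WT, *KEAP1* KO #1, #2 and #3. A gene was eligible only if the orange points of #1 lay to 1 side of the green points of both other clones. This separation is thus a condition of the choice and not a result. The range of the orange points overlaps the grey points of LL2 WT for some genes. Among them are *Thbs1*, *Col6a2*, *Frzb* and *Bmp4* on the left and *Cstdc4*, *Csta2* and *Prkcb* on the right.

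Among genes of Wnt signalling more were apart higher (6) than lower (1). *Frzb*, a secreted Frizzled-related protein that binds Wnt ligands, stood at 21.7, 8.78 and 19.8 CPM in *KEAP1* KO #1 against 0.119 to 0.552 CPM (median 0.29), a log2 difference of 5.4 (SE 0.43, adjusted p = 7.5e-06). *Dkk2*, which encodes a secreted ligand of the Wnt co-receptors, stood at 11.6, 5.72 and 11.6 CPM against 0.197 to 1.27 CPM (median 0.355), and at 78.8, 55.6 and 140 CPM in LL2 WT, a log2 difference of 4.21 (SE 0.45, adjusted p = 6.11e-05). The 3 samples of #1 lay above the other 6 for both, and for *Dkk2* below LL2 WT. Of the receptors, *Fzd1* (difference 2.04, adjusted p = 7.73e-05) and *Fzd8* (1.71, adjusted p = 0.000691) were apart at low levels, with at most 1.08 and 0.834 CPM. Of 27 Wnt ligand, receptor, antagonist and target genes tested, 6 were apart higher and 1 (*Notum*, a Wnt deacylase) lower, with a list median of 0.56. The 6 ranged from 4 to 7 when single samples were left out. *Notum* (difference −1.67) was no longer apart without replicate 1 (−1.76), 2 (−1.55) or 3 (−1.69) of *KEAP1* KO #1 or replicate 2 (−1.57) or 3 (−1.56) of #3.

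In the BMP and TGF-beta pathway 4 of 28 genes tested were apart higher (*Bmp4*, *Tgfb2*, *Bmp2* and *Fstl1*) and 0 lower, with a list median of 0.23. *Bmp4* (chr14:46383520-46390669), a secreted morphogen, stood at 4.82, 3.93 and 3.85 CPM in *KEAP1* KO #1, 0 to 0.238 CPM (median 0.035) in #2 and #3 and 5.59, 0.995 and 5.49 CPM in LL2 WT, a log2 difference of 4.75 (SE 0.51, adjusted p = 6.86e-05). Its samples in #1 were close to each other, while LL2 WT replicate 2 lay below its other replicates. *Fstl1*, a secreted glycoprotein that binds BMPs, stood at 45.7, 45.2 and 47.1 CPM against 8.49 to 18.8 CPM (median 12.22), a log2 difference of 1.87 (SE 0.27, adjusted p = 0.000564). The 4 genes fell to 2 without *KEAP1* KO #1 replicate 3. *Tgfb2* (difference 2.2) was no longer apart without replicate 1 (2.17) or 3 (1.96) of *KEAP1* KO #1 or replicate 1 (2.1) of #3, and *Bmp2* (2.36) without replicate 3 (2.14) of *KEAP1* KO #1 or replicate 2 (2.2) of #3.

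*Pdgfrb*, the receptor of PDGF-B and PDGF-D on mesenchymal cells, and *Cdx2*, a homeobox factor of the intestinal lineage, were above the parental level in *KEAP1* KO #1. *Pdgfrb* stood at 6.62, 1.92 and 4.11 CPM in #1, 0 to 0.0515 CPM (median 0.0263) in #2 and #3 and 0.654, 0.614 and 0.822 CPM in LL2 WT, a log2 difference of 4.97 (SE 0.35, adjusted p = 4.05e-06). *Cdx2* stood at 6.12, 6.48 and 5.39 CPM in #1, at 0 in all samples of #2, at 0.131, 0.208 and 0.146 CPM in #3 and at 0.636, 0.752 and 0.735 CPM in LL2 WT, a log2 difference of 5.24 (SE 0.24, adjusted p = 2.41e-07). For both genes the 3 samples of #1 were the highest and LL2 WT lay between the clones. *Snai2*, a transcription factor of mesenchymal transition, stood at 13.1, 15.8 and 14.97 CPM in #1 against 1.67 to 4.78 CPM (median 3.27), and at 37.8, 33.4 and 42.6 CPM in LL2 WT, a log2 difference of 2.26 (SE 0.2, adjusted p = 1.57e-05). *Hes1*, a repressor downstream of Notch, stood at 13.7, 13.6 and 13.4 CPM against 4.6 to 6.48 CPM (median 5.34), a log2 difference of 1.35 (SE 0.12, adjusted p = 1.75e-05), while the Notch ligand *Dll1* was lower, at 0.971, 1.51 and 1.68 CPM against 5.51 to 8.02 CPM (median 7.65), a log2 difference of −2.3 (SE 0.2, adjusted p = 1.56e-05). For neither gene did the samples of #1 overlap the other 6.

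Of 40 interferon-stimulated genes tested, 8 were higher in *KEAP1* KO #1 and 0 lower, and the list median was 0.45. These genes encode antiviral and RNA-sensing proteins that interferon receptors switch on through STAT and IRF factors. *Ifit2*, which binds viral RNA, stood at 12.7, 6.87 and 10.17 CPM in #1, 1.08 to 2.01 CPM (median 1.3) in #2 and #3 and 12.5, 13.5 and 12.16 CPM in LL2 WT, a log2 difference of 2.69 (SE 0.23, adjusted p = 1.18e-05). *Ifi27*, a mitochondrial and nuclear envelope protein, stood at 12.8, 7.49 and 13.7 CPM against 0.208 to 2.97 CPM (median 1.02), a log2 difference of 3.36 (SE 0.48, adjusted p = 0.000564). *Samd9l*, a cytoplasmic restriction factor, stood at 4.5, 2.24 and 3.59 CPM against 0.259 to 0.919 CPM (median 0.446), a log2 difference of 2.58 (SE 0.29, adjusted p = 9.36e-05). The samples of #1 lay above the other 6 for all 3 genes and overlapped LL2 WT for *Ifit2* and *Samd9l*. *Parp12*, an antiviral ADP-ribosyltransferase, differed by 1.89 (adjusted p = 0.000199). The count of 8 fell to 4 without replicate 1 or 3 of *KEAP1* KO #1 and to 5 without replicate 1 or 2 of *KEAP1* KO #3. The summed level of all 54 members of the list, tested or not, overlapped between the clones. It was 935 to 1145 CPM in #1, 974 to 1186 in #2 and 904 to 1050 in #3. Its most abundant members include *Ifitm2* (difference 0.32) and *Ifitm3* (−0.43), which were not called.

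*Ifit2* and *Ifit3* lie next to each other on chromosome 19 (34550694 to 34588731). The 250 bases before the RefSeq start of *Ifit3* are shown because they hold the letters of an interferon-stimulated response element, GAAA followed after 2 bases by GAAA (capitals, here read on the opposite strand), at 156 and 122 bases before the start. They are chr19:34583279-34583528 of GRCm38.p6, plus strand, from RefSeq.
Ifit3: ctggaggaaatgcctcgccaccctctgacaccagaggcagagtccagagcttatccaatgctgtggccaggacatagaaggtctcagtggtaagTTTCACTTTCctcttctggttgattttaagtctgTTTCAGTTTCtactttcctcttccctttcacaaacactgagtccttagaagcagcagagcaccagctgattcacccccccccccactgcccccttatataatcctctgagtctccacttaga
*Ifit3* stood at 0.494, 0.272 and 0.32 CPM in *KEAP1* KO #1 and 0 to 0.0857 CPM (median 0.0532) in #2 and #3 (difference 1.63), and 61.8% of its 31-base stretches also occur in another gene, so its reads are uncertain. It was no longer apart without replicate 1 (1.44) or 3 (1.69) of *KEAP1* KO #1 or replicate 1 (1.66), 2 (1.66) or 3 (1.59) of #2. Of 10126 tested genes with such a window, 3.01% held these letters on either strand, and among the genes apart it was 8 of 169 higher (4.73%) and 3 of 136 lower (2.21%). A match is a description of the letters and not evidence that a factor binds there.

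Genes of antigen processing and immune recognition gave single members. *Psmb9*, an interferon-inducible subunit of the immunoproteasome, stood at 1.91, 1.15 and 1.69 CPM in *KEAP1* KO #1 against 0.059 to 0.414 CPM (median 0.143), a log2 difference of 2.65 (SE 0.43, adjusted p = 0.00124), and it was the 1 gene apart of 21 tested for MHC class I presentation (3 without replicate 3 of *KEAP1* KO #2 or of #3). *Vcam1*, an adhesion molecule for leukocytes, stood at 37.7, 26.5 and 47.04 CPM against 5.95 to 16.1 CPM (median 7.84), and at 118, 97.98 and 154 CPM in LL2 WT, a log2 difference of 2.02 (SE 0.31, adjusted p = 0.000859). For these 2 genes no sample of #1 overlapped the other clones. *Raet1e*, a ligand of the natural killer receptor NKG2D, was lower, at 13.2, 11.5 and 12.9 CPM against 27.4 to 33.8 CPM (median 30.1), a log2 difference of −1.26 (SE 0.12, adjusted p = 2.98e-05), although 55.5% of its stretches also occur in related genes. *Serpinf1*, the secreted anti-angiogenic factor PEDF, stood at 85.8, 85.8 and 96.7 CPM against 21.2 to 40.9 CPM (median 27.2) and was at 465, 352 and 545 CPM in LL2 WT, a log2 difference of 1.71 (SE 0.18, adjusted p = 5.56e-05).

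The genes lower in *KEAP1* KO #1 included protease inhibitors and an epithelial keratin. Of 23 serpins and cystatins tested, 4 were apart lower and 2 higher, and the list median was −0.82. *Cstdc4*, a gene of the stefin A family of cysteine protease inhibitors, stood at 0.098, 0.483 and 0.176 CPM in #1, 5.67 to 10.9 CPM (median 6.77) in #2 and #3 and 0.0517, 0.0242 and 0.167 CPM in LL2 WT, a log2 difference of −4.55 (SE 0.36, adjusted p = 7.54e-06). *Csta2*, of the same family and region (chr16:36221562-36257447), stood at 0.561, 0.788 and 3.12 CPM against 16.8 to 26.8 CPM (median 22.9), with 1.35, 0.592 and 3.13 CPM in LL2 WT, a log2 difference of −4.14 (SE 0.48, adjusted p = 0.000123). *Serpinb9b*, a granzyme-inhibitor-like serpin, stood at 5.51, 9.21 and 6.14 CPM against 38.04 to 65.9 CPM (median 51.4), a log2 difference of −2.91 (SE 0.29, adjusted p = 3.56e-05). The 3 samples of #1 lay below the other 6 for all 3 genes and, for the cystatins, overlapped LL2 WT. *Krt76*, an epithelial keratin, stood at 7.66, 13.1 and 11.3 CPM in #1, 20.8 to 62.9 CPM (median 39.99) in #2 and #3 and at most 0.114 CPM in LL2 WT, a log2 difference of −1.95 (SE 0.22, adjusted p = 9.17e-05). *Selp*, the adhesion receptor P-selectin, stood at 11.8, 19.7 and 24.96 CPM against 49.9 to 89.4 CPM (median 70.8) and at most 0.272 CPM in LL2 WT (difference −1.91), and it was no longer apart without replicate 1 (−1.61) of *KEAP1* KO #1. For these 2 genes #1 stood between LL2 WT and the other clones.

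*H2-M1* and *H2-M9*, neighbouring non-classical MHC class I genes (chr17:36639285-36672219), were listed at 0 in LL2 WT. *H2-M1* stood at 0.117, 0.657 and 0.0788 CPM in *KEAP1* KO #1, at 11.3, 12.32 and 1.6 CPM in #2 and at 16.9, 15.2 and 3.14 CPM in #3, a log2 difference of −4.64 (SE 0.69, adjusted p = 0.000694). *H2-M9* stood at 0, 0.0713 and 0 CPM in #1, 2.42, 2.52 and 0.339 CPM in #2 and 2.32, 3.27 and 0.672 CPM in #3, a log2 difference of −3.76 (SE 0.58, adjusted p = 0.000865). Replicate 3 was the lowest of #2 and of #3 for both genes, yet all 6 samples lay above those of #1.

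Some of the lower signalling genes are best known from blood cells. No list of such genes was counted, and others of them (*Batf*, *Batf3*, *Ikzf2*, *Clec9a*, *Cd300ld3* and *Gimap9*, chosen after their values were seen) were apart higher. *Prkcb* (chr7:122288751-122634402), a diacylglycerol-dependent kinase of B cell receptor signalling, stood at 0.92, 0.904 and 2.5 CPM in *KEAP1* KO #1, 15.1 to 37.1 CPM (median 20.6) in #2 and #3 and 2.55, 1.38 and 5.64 CPM in LL2 WT, a log2 difference of −3.95 (SE 0.48, adjusted p = 0.000166). *Nckap1l*, the haematopoietic subunit of the WAVE actin regulator, stood at 0.276, 0.666 and 1.14 CPM against 6.1 to 10.5 CPM (median 8.0), a log2 difference of −3.5 (SE 0.3, adjusted p = 1.28e-05). *Arap3*, a phosphoinositide-dependent GTPase-activating protein for ARF6 and RhoA, stood at 2.72, 2.75 and 4.84 CPM against 28.5 to 48.6 CPM (median 35.2), with 15.4, 8.83 and 15.3 CPM in LL2 WT, a log2 difference of −3.44 (SE 0.25, adjusted p = 4.54e-06). No sample of #1 reached the lowest of the other clones for any of them. The integrin chain *Itgb7*, which pairs with alpha 4 or alpha E on lymphocytes, stood at 102, 155 and 162 CPM against 331 to 415 CPM (median 389), a log2 difference of −1.46 (SE 0.17, adjusted p = 0.000146). Outside blood cell genes, the adaptor *Shc2* (difference −3.59, adjusted p = 1.22e-06), the forkhead factor *Foxs1* (−3.7, adjusted p = 2.32e-06) and the microtubule-associated *Map1a* (−3.86, adjusted p = 1.23e-05) were at or below 0.337 CPM in #1 and at least 1.81 CPM in the other 6 samples. *Ptprc*, the pan-leukocyte marker, was at most 0.192 CPM in #1 and 0.123 CPM in #2 and #3. Of 3 leukocyte markers tested *Lyz2* was apart higher and 0 lower. The summed level of all 8 markers of this list, tested or not, was 5.64 to 10.21 CPM in #1, 9.58 to 22.9 in #2 and 14.4 to 37.4 in #3. The part of other cells in these differences was not tested.

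Cytokines and guidance cues were apart in both directions. Of 17 interleukins, colony-stimulating factors and IL-6 family cytokines tested, 2 were apart lower (*Il11* and *Il7*) and 1 higher (*Il15*), with a list median of −0.28. *Il11*, an IL-6 family cytokine, stood at 0.299, 1.45 and 1.94 CPM in *KEAP1* KO #1, 8.05 to 11.3 CPM (median 9.48) in #2 and #3 and 14.8, 6.89 and 16.97 CPM in LL2 WT, a log2 difference of −3.15 (SE 0.45, adjusted p = 0.000549). *Il7*, the lymphocyte survival cytokine, stood at 2.44, 2.96 and 3.49 CPM against 9.93 to 15.2 CPM (median 12.96) and at most 0.0601 CPM in LL2 WT, a log2 difference of −2.07 (SE 0.21, adjusted p = 3.79e-05). Both were below the other clones in all 3 samples, *Il11* also below LL2 WT and *Il7* above it. *Il15*, a growth factor of natural killer and memory T cells, stood at 0.375, 0.18 and 0.9 CPM in #1 and was listed at 0 in all 6 samples of #2 and #3, and it was no longer apart without replicate 1 or 3 of *KEAP1* KO #1 or replicate 1 or 2 of #2 or of #3. *Sema7a*, a membrane-anchored semaphorin, stood at 0.548, 0.69 and 1.04 CPM against 3.45 to 4.96 CPM (median 4.14), a log2 difference of −2.36 (SE 0.24, adjusted p = 4.02e-05), and *Plxna4*, a semaphorin receptor, at 1.15, 1.46 and 2.74 CPM against 6.54 to 12.22 CPM (median 9.08), a log2 difference of −2.32 (SE 0.31, adjusted p = 0.000297). Of 46 genes of semaphorins, plexins, ephrins, their receptors and other guidance cues tested, 5 were apart lower and 3 higher, with a list median of 0.07. The 5 fell to 3 without any 1 of replicates 1 and 2 of *KEAP1* KO #1, replicates 1 and 3 of #2, and the replicates of #3. *Hoxb4*, a homeobox factor of axial patterning, stood at 1.13, 1.11 and 1.43 CPM against 2.87 to 4.46 CPM (median 3.64), a log2 difference of −1.49 (SE 0.22, adjusted p = 0.000608), and of 26 Hox genes tested 3 were apart lower and 1 higher. The 3 fell to 1 without *KEAP1* KO #1 replicate 2 or *KEAP1* KO #3 replicate 2. Over all genes tested, 1.65% were apart higher and 1.3% lower, to be set beside the counts of these lists.

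The matrix metalloproteinases lower in *KEAP1* KO #1 were *Mmp3* (stromelysin 1), *Mmp10* (stromelysin 2) and the collagenase-like *Mmp1b*, which lie in 1 cluster on chromosome 9. *Mmp3* stood at 17.2, 25.7 and 44.7 CPM in #1, 61.9 to 129 CPM (median 74.5) in #2 and #3 and 80.5, 58.1 and 124 CPM in LL2 WT (difference −1.64, SE 0.28, adjusted p = 0.00157). *Mmp10* stood at 2.75, 5.96 and 9.89 CPM against 14 to 28.1 CPM (median 20.1) (difference −1.86, SE 0.33, adjusted p = 0.00211). In both, the 3 samples of #1 were below the other 6, with replicate 1 the lowest and replicate 3 the highest. *Mmp3* was no longer apart without replicate 1 (−1.32) or 2 (−1.6) of *KEAP1* KO #1 or replicate 1 (−1.63) or 2 (−1.63) of #2. For *Mmp10* this was so without replicate 1 (−1.37) of *KEAP1* KO #1 or replicate 1 (−1.82) or 2 (−1.83) of #2. *Mmp1b* (difference −1.65) was no longer apart without replicate 1 (−1.15) of *KEAP1* KO #1, replicate 1 (−1.59), 2 (−1.65) or 3 (−1.71) of #2 or replicate 1 (−1.67) or 2 (−1.52) of #3. Of 35 genes of metalloproteinases, ADAM proteases and TIMPs tested, 4 were apart lower and 0 higher, with a list median of 0.01. The 4 fell to 0 without *KEAP1* KO #1 replicate 1 or *KEAP1* KO #2 replicate 2, to 1 without *KEAP1* KO #2 replicate 1, and to 2 without *KEAP1* KO #1 replicate 2 or *KEAP1* KO #2 replicate 3.

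The 250 bases before the RefSeq starts of *Mmp3* and *Mmp10* are shown because each holds 1 copy of the AP-1 letters, TGACTCA (capitals, here read on the opposite strand), at 46 and 63 bases before the start, and the window of *Sema7a* because it holds the antioxidant response element letters TGACNNNGC (capitals) at 49 bases before the start. All 3 are on the plus strand of GRCm38.p6 in RefSeq, at chr9:7445572-7445821, chr9:7502092-7502341 and chr9:57939862-57940111.
Mmp3: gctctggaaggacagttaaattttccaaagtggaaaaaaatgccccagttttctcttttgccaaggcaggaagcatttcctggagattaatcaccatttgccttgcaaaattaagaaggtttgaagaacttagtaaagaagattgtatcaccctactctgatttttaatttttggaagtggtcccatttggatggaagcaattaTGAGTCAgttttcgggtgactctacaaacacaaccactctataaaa
Mmp10: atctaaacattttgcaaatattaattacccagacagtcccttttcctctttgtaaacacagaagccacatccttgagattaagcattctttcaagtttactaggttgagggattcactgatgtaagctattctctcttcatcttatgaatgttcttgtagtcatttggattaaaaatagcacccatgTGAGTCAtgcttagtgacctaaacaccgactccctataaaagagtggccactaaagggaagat
Sema7a: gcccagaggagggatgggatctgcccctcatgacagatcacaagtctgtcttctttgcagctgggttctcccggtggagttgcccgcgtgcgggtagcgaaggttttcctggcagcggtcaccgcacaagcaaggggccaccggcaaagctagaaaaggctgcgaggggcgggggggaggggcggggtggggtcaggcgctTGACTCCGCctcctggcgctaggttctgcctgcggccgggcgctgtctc
AP-1 is the FOS and JUN family of transcription factors, and NRF2 binds the antioxidant response element with small MAF proteins. Read on both strands, TGACTCA was in 4.41% of the 10126 genes with a window, in 12 of 169 genes apart higher (7.1%) and in 15 of 136 apart lower (11%). TGACNNNGC was in 13.7% of all, in 23 of the 169 (13.6%) and in 21 of the 136 (15.4%). The 2 patterns overlap where the letters are TGACTCAGC, which 47 genes (0.464%) hold. *Sema7a*, lower in *KEAP1* KO #1, stood at 4.78, 3.9 and 4.05 CPM in LL2 WT, within the range of #2 and #3.

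The count of NRF2 targets apart is to be read beside the 2.96% of all genes tested that were apart in either direction. Of 56 redox and detoxification genes tested, 0 were apart higher and 2 lower (*Abcc2* and *Slc7a11*), and the list median was −0.13. The 2 fell to 0 without any 1 replicate of *KEAP1* KO #1, without replicate 1 or 2 of *KEAP1* KO #2 or without replicate 1 of *KEAP1* KO #3, and to 1 without any other sample of the clones. *Slc7a11*, the cystine importer that feeds glutathione synthesis, stood at 13.98, 21.3 and 23.1 CPM in *KEAP1* KO #1, 55.9, 54.9 and 46.8 CPM in #2, 97.8, 96.7 and 104 CPM in #3 and 5.54, 1.81 and 5.41 CPM in LL2 WT. The samples of #1 lay below those of both clones and above LL2 WT. The difference of −1.92 (SE 0.37, adjusted p = 0.00363) kept its sign in all 9 fits with 1 sample left out (−2.06 to −1.70), and the gene was apart in none of them. *Abcc2*, a conjugate exporter, was at 0.00409, 0.0853 and 0.029 CPM in #1 and 0.166 to 2.65 CPM (median 0.619) in the others (difference −2.59). It was no longer apart without replicate 1 (−2.4), 2 (−2.82) or 3 (−2.56) of *KEAP1* KO #1, replicate 1 (−2.44) or 2 (−2.51) of #2 or replicate 1 (−2.62) of #3.

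*Gclc* and *Gclm*, the subunits of the rate-limiting enzyme of glutathione synthesis, differed by −0.16 (adjusted p = 0.285) and −0.43 (adjusted p = 0.135). *Txnrd1*, thioredoxin reductase, was 406, 429 and 415 CPM in *KEAP1* KO #1 and 575 to 632 CPM (median 621) in the others, a difference of −0.55 (SE 0.11, adjusted p = 0.00549) that is under the size needed for a call although the samples did not overlap. *Nqo1*, the quinone reductase, differed by 0.78 against #2 (adjusted p = 0.0028) and −0.04 against #3 (adjusted p = 0.896). *Srxn1*, sulfiredoxin, differed by 0.81 (adjusted p = 0.00511) and 0.39 (adjusted p = 0.127). *Gsta2*, a glutathione S-transferase, stood at 179, 220 and 214 CPM in #1, 384, 384 and 317 CPM in #2 and 921, 911 and 797 CPM in #3, and was called lower only against #3 (−2.1, adjusted p = 0.00163; −0.82 against #2, adjusted p = 0.147), while 60.7% of its stretches occur in other genes. *Nfe2l2*, the gene of NRF2, stood at 86.96, 99.03 and 103 CPM in #1 and 111 to 124 CPM (median 122) in the others (difference −0.32, adjusted p = 0.0659).

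Of 37 amino acid and glucose transporters tested, 4 were apart lower and 0 higher, with a list median of −0.02. The shares over all genes tested were 1.3% lower and 1.65% higher. Of the 4, 3 remained in each of the 9 fits with 1 sample left out. *Slc6a15*, a neutral amino acid transporter, stood at 15.8, 18.7 and 18.1 CPM in *KEAP1* KO #1 against 41.1 to 66.3 CPM (median 55.01), a log2 difference of −1.64 (SE 0.16, adjusted p = 3.2e-05). *Slc7a4*, a related carrier of uncertain substrate, stood at 0.113, 0.0375 and 0.0687 CPM against 0.864 to 2.36 CPM (median 1.13), a log2 difference of −2.98 (SE 0.28, adjusted p = 2.46e-05). The mitochondrially encoded complex I subunit *mt-Nd3* stood at 602, 625 and 749 CPM against 1286 to 2055 CPM (median 1697), a log2 difference of −1.34 (SE 0.16, adjusted p = 0.000132), and 98.1% of its stretches also occur in a nuclear copy. It was the 1 gene apart of 13 mitochondrial transcripts, whose median was −0.55.

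Of 19 prostaglandin genes tested, 2 were apart lower and 0 higher, with a list median of −0.34. The shares over all genes tested were 1.3% lower and 1.65% higher. The summed level of all 38 members, tested or not, was 1139 to 1270 CPM in *KEAP1* KO #1, 1445 to 1476 in #2 and 1469 to 1557 in #3. In LL2 WT it was 1012 to 1215 CPM. *Pla2g2d*, a secreted phospholipase A2, stood at 0.567, 0.325 and 0.762 CPM in *KEAP1* KO #1, 2.29 to 5.19 CPM (median 3.6) in #2 and #3 and 0, 0.0365 and 0.0239 CPM in LL2 WT, a log2 difference of −2.59 (SE 0.28, adjusted p = 6.77e-05). *Pla2g5*, its neighbour on chromosome 4 and of the same enzyme family, stood at 0.283, 1.01 and 0.251 CPM against 1.3 to 4.08 CPM (median 1.99), a log2 difference of −2.03 (SE 0.42, adjusted p = 0.00565). It was no longer apart without replicate 1 (−1.79) or 3 (−1.73) of *KEAP1* KO #1, replicate 2 (−1.82) of #2 or replicate 2 (−1.93) of #3. For both genes #1 lay above LL2 WT and below the other clones.

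Of 13 EGF family ligands and receptors tested, 2 were apart lower and 1 higher, with a list median of −0.55. The shares over all genes tested were 1.3% lower and 1.65% higher. The summed level of all 16 members, tested or not, was 103 to 162.5 CPM in *KEAP1* KO #1, 183.5 to 225.7 in #2 and 169.1 to 207.4 in #3. In LL2 WT it was 118.6 to 179.7 CPM. *Tgfa*, a ligand of the EGF receptor, stood at 0.932, 0.881 and 1.37 CPM in *KEAP1* KO #1, 2.82 to 4.23 CPM (median 3.13) in #2 and #3 and 0.829, 0.767 and 1.21 CPM in LL2 WT, a log2 difference of −1.56 (SE 0.25, adjusted p = 0.00132). *Areg*, amphiregulin, another ligand of this receptor, stood at 35.1, 38.9 and 58.6 CPM against 83.5 to 108 CPM (median 92.02), with 31.2, 32.8 and 43.7 CPM in LL2 WT, a log2 difference of −1.1 (SE 0.16, adjusted p = 0.000765). *KEAP1* KO #1 overlapped LL2 WT for both ligands and did not overlap the other clones. *Areg* was no longer apart without replicate 1 (−0.95) or 2 (−1.02) of *KEAP1* KO #1 or replicate 3 (−1.07) of #3. *Nrg1*, a ligand of ERBB3 and ERBB4, was higher, at 7.55, 6.39 and 8.61 CPM in #1, 4.62, 3.41 and 2.95 CPM in #2 and 1.38, 1.57 and 1.75 CPM in #3 (difference 1.61), and was apart in none of the 9 fits with 1 sample left out (1.51 to 1.72).

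Of 27 FGF, HGF, IGF and PDGF ligands and receptors tested, 3 were apart higher (*Pdgfrb*, *Fgfr2* and *Pdgfa*) and 2 lower (*Gdnf* and *Fgf1*), with a list median of 0.19. The shares over all genes tested were 1.65% higher and 1.3% lower. *Pdgfa*, a ligand of the PDGF receptors, stood at 20.6, 16.5 and 24.5 CPM in *KEAP1* KO #1 against 6.29 to 12.24 CPM (median 7.32) (difference 1.3), and was no longer apart without replicate 1 (1.26) or 2 (1.22) of *KEAP1* KO #2. *Fgfr2*, an FGF receptor, stood at 1.73, 0.705 and 1.01 CPM against 0.165 to 0.439 CPM (median 0.196) (difference 1.78), and was no longer apart without replicate 1 (1.46) or 3 (1.82) of *KEAP1* KO #1, replicate 1 (1.72) or 3 (1.71) of #2 or replicate 1 (1.7) or 2 (1.71) of #3. For neither gene did #1 overlap the other clones. *Gdnf*, a neurotrophic factor that signals through RET, stood at 0.258, 0.412 and 0.851 CPM against 1.75 to 3.0 CPM (median 1.99) (difference −2.0), and was no longer apart without replicate 1 (−1.68) of *KEAP1* KO #1. *Fgf1*, an FGF ligand, stood at 0.652, 0.664 and 0.512 CPM against 1.56 to 3.39 CPM (median 1.95) (difference −1.7), and was no longer apart without replicate 3 (−1.6) of *KEAP1* KO #1 or replicate 2 (−1.55) of #2. In both, the 3 samples of #1 lay below the other 6.

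Of 22 epithelial and mesenchymal markers and regulators tested, 3 were apart higher and 1 lower, with a list median of 0.21. Besides *Snai2* and *Acta2* these were *Twist1*, a transcription factor of mesenchymal identity, and *S100a4*, a calcium-binding protein of motile cells. *Twist1* stood at 38.04, 35.5 and 45.8 CPM in *KEAP1* KO #1 against 14.8 to 24.2 CPM (median 18.4), with 51.97, 52.5 and 73.6 CPM in LL2 WT, a log2 difference of 1.1 (SE 0.16, adjusted p = 0.000632). It was no longer apart without replicate 3 (1.0) of *KEAP1* KO #1. *S100a4* was lower, at 1605, 994 and 1364 CPM against 2470 to 3214 CPM (median 2864), a log2 difference of −1.13 (SE 0.23, adjusted p = 0.00485), and 49.2% of its stretches also occur in another gene. It was no longer apart without replicate 2 (−0.94) or 3 (−1.17) of *KEAP1* KO #1 or replicate 1 (−1.13) or 2 (−1.12) of #2. *Itgb8*, an integrin chain that activates latent TGF-beta, was higher, at 1.22, 0.937 and 1.16 CPM against 0.0269 to 0.229 CPM (median 0.0984), a log2 difference of 2.64 (SE 0.29, adjusted p = 8.45e-05).

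Of 55 function lists, 15 had no gene apart in either direction. Those were, with their tested genes, NF-kB subunits and feedback targets (18), the TNF superfamilies (21), retinoid uptake and receptors (15), glycolysis and HIF-1 targets (35), the ATF4 response with serine metabolism (34), lipid droplets and fatty acid uptake (33), cell cycle and DNA replication (53), cytosolic ribosomal proteins (83), oxidative phosphorylation subunits (81), heat shock proteins (33), lysosome and autophagy (38), RGS and cyclic nucleotide genes (40), imprinted genes (16), X-inactivation and Y-linked genes (2) and DNA and histone modification (53). Their medians lay between −0.07 and 0.25. For some of them the summed level of all members, tested or not, did not overlap the other clones. For the NF-kB list it was 505.5 to 607.3 CPM in #1, 629.9 to 709.8 in #2 and 685.6 to 727.5 in #3. For lysosome genes it was 5998 to 6211, 6711 to 7526 and 7502 to 8047 CPM in this order. For ribosomal proteins it was 174000 to 186500, 160600 to 172500 and 163900 to 172600 CPM. In the other lists named here #1 overlapped at least 1 other clone. The sums were not tested. In all, 125 of the 433 genes apart were in a list and 308 in none.

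**Figure D4:**
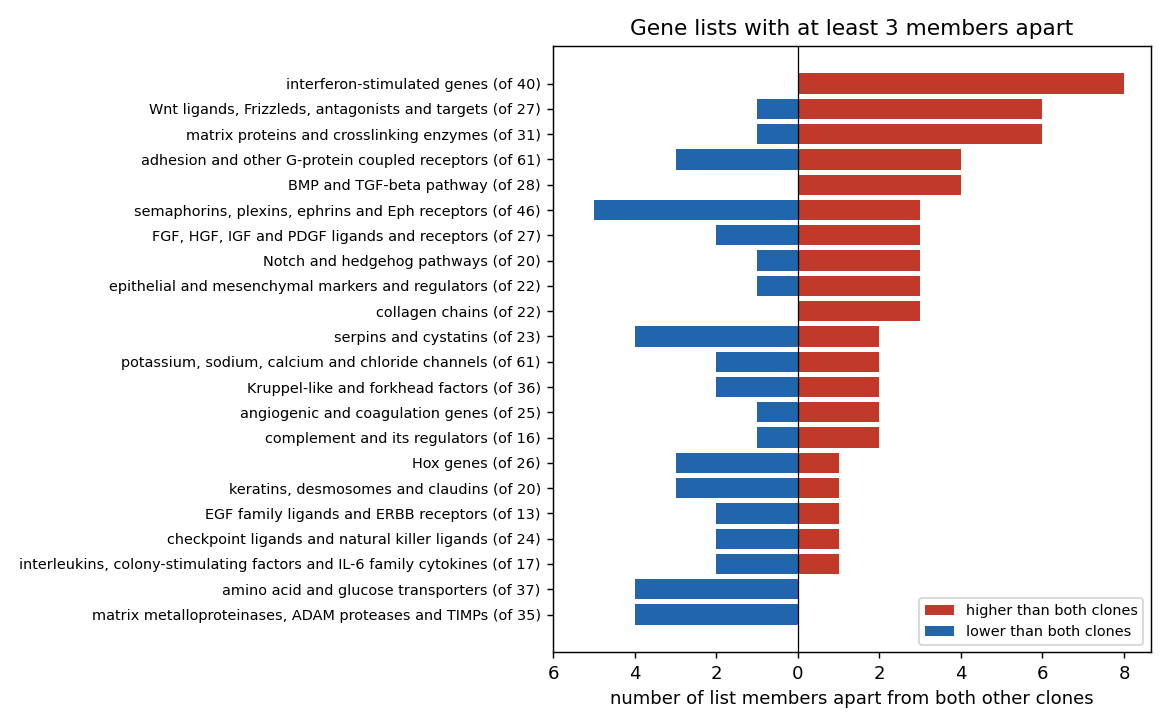
Number of members apart from both other clones, higher in *KEAP1* KO #1 to the right (red) and lower to the left (blue), for the function lists with at least 3 such members, with the number of genes tested in brackets. Interferon-stimulated genes (8 higher), matrix proteins (6 higher, 1 lower) and Wnt genes (6 higher, 1 lower) lead on the higher side, and guidance genes (5 lower) on the lower side.

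The share of a chromosome's tested genes that were apart higher ranged from 0.819% to 4.21%, and lower from 0.36% to 2.24%. Relative to the median of all 11559 genes placed and averaging at least 1 CPM, chromosome 1 was higher by 0.27 in *KEAP1* KO #1 than in #2 and by 0.21 than in #3 (657 genes), and chromosome 7 by 0.18 and 0.19 (854 genes). Chromosome 10 was lower by 0.22 and 0.38 (568 genes), chromosome 19 by 0.23 and 0.19 (419 genes), chromosome 15 by 0.19 and 0.17 (455 genes) and chromosome 17 by 0.14 and 0.21 (581 genes). Each of the 3 samples of #1 had the same sign on these 6 chromosomes. Chromosome 1 carried 36 of the 242 higher genes (4.21% of its tested genes), *Col6a3*, *Dpt*, *Fn1* and *Tgfb2* among them, and 9 of the lower. Chromosome 10 carried 16 of the lower (2.24%) and 8 of the higher, among which were *Col6a1* and *Col6a2*. Genes on a chromosome are not independent, and no test was made. Of the genes apart, 36 higher ones lay in 17 runs and 21 lower ones in 10 runs of neighbouring tested genes on the annotation. How many runs to expect was not estimated.

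**Figure D5:**
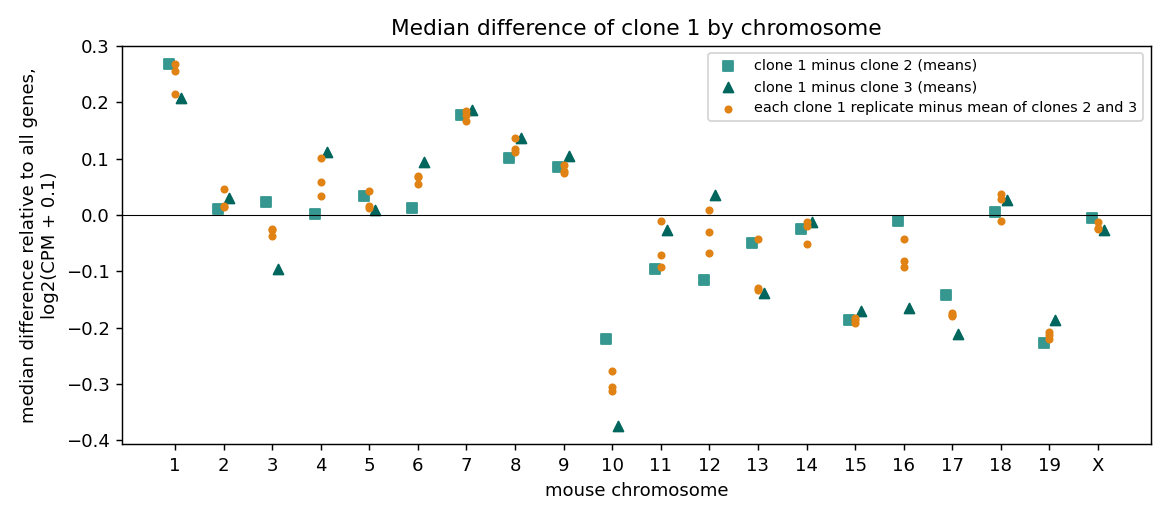
Median difference of the genes of each mouse chromosome, relative to the median of all placed genes averaging at least 1 CPM, on the log2(CPM + 0.1) scale. Squares compare the mean of *KEAP1* KO #1 with #2, triangles with #3, and orange points each sample of #1 with the mean of #2 and #3. Chromosome 1 is highest in both comparisons (0.27 and 0.21), chromosomes 19 (−0.23) and 10 (−0.22) are lowest against #2 and chromosome 10 (−0.38) against #3, and the orange points of a chromosome lie close together.

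A few genes with large differences are uncertain or little known. *Gm50179* stood at 1.96, 5.96 and 3.59 CPM in *KEAP1* KO #1 and was listed at 0 in all samples of #2, #3 and LL2 WT, so no fold is given. *Gm50180* stood at 1.25, 11.6 and 7.28 CPM in #1, 0.383, 0 and 0 CPM in #2 and 0, 0 and 0.373 CPM in #3, and was listed at 0 in LL2 WT. The samples of #1 lay above all others for both genes. *Gm12168* was listed at 0 in #1 and stood at 2.1 to 5.65 CPM (median 5.01) in the others, with 76% of its stretches shared with another gene. It was no longer apart without replicate 1 (−5.46) of *KEAP1* KO #1 or replicate 1 (−5.33) or 2 (−5.39) of #2. *Speer4c*, of a spermatogenesis-associated gene family with near-identical copies, stood at 0, 0.00694 and 0 CPM in #1, 3.52, 0.209 and 0.922 CPM in #2 and 3.74, 2.76 and 1.76 CPM in #3, with 94.7% of its stretches shared, and it was no longer apart without replicate 1 (−4.03), 2 (−4.08) or 3 (−4.03) of *KEAP1* KO #1, replicate 1 (−3.6) or 3 (−4.06) of #2 or replicate 1 (−3.93), 2 (−4.03) or 3 (−4.19) of #3. *Ldhb*, the lactate dehydrogenase chain of oxidative tissues, stood at 4.6, 1.83 and 2.69 CPM in #1, 0 to 0.271 CPM (median 0.0589) in #2 and #3 and 8.9, 9.61 and 9.35 CPM in LL2 WT, a log2 difference of 4.15 (SE 0.4, adjusted p = 2.98e-05), with 33% of its stretches shared with a related gene. The samples of #1 lay above all 6 of the others and below LL2 WT.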

How the data were processed

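The mRNA of 15 cultures of LL2 lines was sequenced (5 lines, 3 samples each). The authors demultiplexed reads (bcl2fastq 1.9.0 per the labels), quantified them with kallisto and deposited CPM values for 35880 gene symbols in 1 table. The methods give only an average depth over samples. The depth of each sample is unknown, since CPM values keep no counts. The labels name GRCm39 and the methods GRCm38.p6, so positions were taken by symbol from GENCODE vM21 (GRCm38), and promoters from RefSeq of GRCm38.p6. An entry without a symbol held 0.0214% to 0.0491% of the CPM and was left out.

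Genes with CPM summing to 3 or more over the 15 samples were tested (14652, with 21228 removed). log2(CPM + 0.1) values of all 15 samples were fitted with a mean per line in limma 3.58.1 (R 4.3.3, empirical Bayes with a trend), with Benjamini-Hochberg adjustment over all genes tested. Tables and plots used Python 3.11.15, numpy 2.4.6, pandas 2.3.3 and matplotlib 3.10.9. A gene was called when the adjusted p was below 0.05 and the log2 difference exceeded 1 in either direction. The fit was tested on simulated data. Groups came from the genotype labels. The comparison, the 55 function lists and the 7 marker lists were chosen with earlier results of these data known. Named genes were the 12 genes apart in each direction with the largest differences, ranked by the smaller of those from #2 and from #3. For these 12, the 3 samples of #1 had to lie clear of the other 6. Their mean had to be at least 1 CPM in #1 (higher genes) or in each of #2 and #3 (lower genes). From each list, up to 6 genes apart in each direction and up to 2 abundant members were named. *Keap1*, *Nfe2l2* and NRF2 targets were added as a check of the lines. Shared sequence is the share of a gene's 31-base transcript stretches found in another gene of GENCODE vM21. Alternatives were other pseudocounts, filters and scalings, array weights, a replicate block, a fit to the 9 *KEAP1* KO samples and leaving out each sample. Averaging replicates 1 and 2 of *KEAP1* KO #2 and #3, and leaving out replicate 3 of every line, were chosen after seeing the data. Of the named genes, 1 is not reported here. The authors' pathway software analysis was not repeated.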

Additional observations from a re-analysis of the deposited data

Results flagged for a closer look

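For 8 genes apart in *KEAP1* KO #1, that clone and the other 2 clones moved in opposite directions from LL2 WT, each passing the same threshold. The difference itself was tested by limma as *KEAP1* KO #1 minus the mean of #2 and #3, and it kept its call in all 9 fits with 1 sample left out for each of the 8. The contrasts with LL2 WT share the LL2 WT samples.

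Of these, 2 were higher in #1. *Cdx2* differed from LL2 WT by 2.91 in #1, −3.01 in #2 and −1.63 in #3, a difference between clones of 5.24 (adjusted p = 2.41e-07). *Pdgfrb* differed by 2.28, −2.82 and −2.57, a difference of 4.97 (adjusted p = 4.05e-06).

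The other 6 were lower in #1. *Nckap1l* differed from LL2 WT by −1.33, 2.40 and 1.94 in #1, #2 and #3 (difference −3.50), and *Arap3* by −1.92, 1.44 and 1.61 (difference −3.44). *Cyth4*, an exchange factor for ARF GTPases, differed by −1.37, 2.11 and 1.41 (difference −3.14). *Ngef*, a guanine nucleotide exchange factor downstream of ephrin receptors, differed by −1.37, 1.55 and 1.84 (difference −3.07). *Neto2*, an auxiliary subunit of kainate receptors, differed by −1.23, 1.2 and 1.26 (difference −2.46), and *Inpp4b*, a phosphoinositide phosphatase, by −1.0, 1.04 and 1.56 (difference −2.30). These 8 were found by a rule applied to all 433 genes apart.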

How the results depend on the processing

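The counts of genes called moved by over 1.5 times under some settings. No named gene changed sign under any setting. The balance of higher and lower genes did turn, from 242 higher and 191 lower than both (439 and 314 against the mean of #2 and #3) to 215 and 247 (375 and 394) after quantile normalization, 215 and 230 (385 and 356, not turned) with rescaled CPM and 155 and 198 (302 and 316) without *KEAP1* KO #1 replicate 3. The median over all genes was 0.09, 0.01, 0.00 and 0.06 in this order. With a pseudocount of 1 CPM, the genes called in *KEAP1* KO #1 against the mean of #2 and #3 were 199 higher and 169 lower, those against #2 219 and 165, those higher than #3 186, and those apart from both 123 higher and 117 lower, 233 of them among the 433. With array weights they were 735 higher than the mean, 786 higher and 429 lower than #2, 729 higher than #3 and 458 higher than both. With replicates 1 and 2 of *KEAP1* KO #2 and of #3 averaged, chosen after seeing the data, they were 241 higher and 168 lower than #2, 224 higher than #3 and 130 higher and 114 lower than both.

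Leaving out 1 sample at a time gave 302 to 533 genes higher and 231 to 316 lower than the mean of #2 and #3, 264 to 473 higher and 172 to 258 lower than #2, 254 to 490 higher and 218 to 299 lower than #3, and 155 to 257 higher and 123 to 198 lower than both. Of the counts against #2, the higher genes were 264 without *KEAP1* KO #2 replicate 1 and 270 without its replicate 2, and the lower genes were 172 without *KEAP1* KO #1 replicate 1. Of the genes apart, 72 higher and 67 lower kept their call under every alternative. Of 125 genes apart that the text names, 75 kept the call in all 9 fits with 1 sample left out and 54 under every alternative. A gene printed without a lost call may thus have lost it under a setting other than leaving out 1 sample. *Keap1* was no longer called with a pseudocount of 1 CPM (1.00) or quantile normalization (0.97).

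The labels do not say what a replicate number shares, and same-numbered samples did not deviate together in every pair, so the numbers were not taken as pairs. The correlation of deviations from the line means was −0.0221 to 0.546 for same-numbered samples of the 3 clones (9 pairs, median 0.275) and −0.44 to 0.286 for the others (18 pairs, median −0.208). It was −0.0221 and 0.0267 for replicate 1 of *KEAP1* KO #1 with those of the other clones. Between replicates 3 of the clones it was 0.422 to 0.546. Pairs of replicates 3 that include LL2 WT or *NRF2* KO gave 0.437 to 0.631. Replicates 3 of all lines thus deviated together, and the main fit holds no term for this. In LL2 WT the robust SD of the log2 ratio with replicate 3 was 0.483 and 0.613. It was 0.216 between its replicates 1 and 2 (genes of at least 300 CPM). Not every sample correlated best with its own number. A fit with a replicate block gave 329 higher and 243 lower than both. Counts per gene and the depth of each sample are not known, so no interval for counting error is given. Values below about 0.1 CPM rest on the pseudocount.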

Other observations

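The genes below belong to no list used above and were chosen after their values were seen, so they are values without support from the choice. The first 4 are known from lymphoid or myeloid cells and were lower in *KEAP1* KO #1. *Il7r*, the receptor chain for IL-7, stood at 0.0396, 0.0526 and 0.256 CPM in *KEAP1* KO #1 and 0.74 to 1.66 CPM (median 1.07) in #2 and #3, with 0.081, 0.0372 and 0.0526 CPM in LL2 WT. *Havcr2*, the checkpoint receptor TIM-3, stood at 2.11, 4.99 and 4.77 CPM against 15.2 to 26.9 CPM (median 23.4), and was no longer apart without replicate 1 (−2.14) of *KEAP1* KO #1 or replicate 1 (−2.49) or 2 (−2.48) of #2. *Ptpn6*, the phosphatase SHP-1, stood at 4.67, 2.18 and 4.01 CPM against 6.32 to 15.9 CPM (median 10.9), and was no longer apart without replicate 2 (−1.16) of *KEAP1* KO #1 or replicate 3 (−1.36) of #3. *Fyb*, an adaptor of T cell receptor signalling, stood at 0.377, 0.12 and 0.456 CPM against 1.23 to 3.76 CPM (median 1.6). In these 4 genes the samples of #1 lay below the other 6. Beside them, *Ptprc* was at most 0.192 CPM in #1 and 0.123 CPM in the other clones and *Adgre1* was at 0, while *Cd68* ran from 4.78 to 9.19 CPM in #1 and 8.81 to 36.5 CPM in #2 and #3. The part of other cells in these values was not tested.

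Some genes of the cornified barrier and of squamous epithelium were lower. No list of such genes was counted. Of 20 keratin, desmosome and claudin genes tested, 3 were apart lower and 1 higher, with a list median of −0.28. With single samples left out, 1 to 3 were lower and 0 to 1 higher. The summed level of all 107 members, tested or not, was 375.4 to 538.9 CPM in *KEAP1* KO #1, 696.2 to 743.4 in #2 and 648.8 to 752.4 in #3. In LL2 WT it was 662.2 to 755.2 CPM. *Sprr1b*, a cornified envelope precursor, stood at 0.863, 4.12 and 2.4 CPM in *KEAP1* KO #1 against 6.48 to 27.3 CPM (median 19.1), and was no longer apart without replicate 1 (−2.22) or 3 (−2.91) of *KEAP1* KO #1, replicate 1 (−2.67) or 2 (−2.64) of #2 or replicate 1 (−2.7) or 2 (−2.66) of #3. *Padi1*, an enzyme that converts arginine to citrulline in epidermal proteins, stood at 0.279, 0.645 and 0.813 CPM against 1.61 to 3.12 CPM (median 2.08), a log2 difference of −1.87 (SE 0.28, adjusted p = 0.000804). The neighbouring serine protease genes *Tmprss11e* and *Tmprss11f* differed by −2.21 (adjusted p = 0.000632) and −2.52 (adjusted p = 0.0005). *Il36g*, an epithelial cytokine, stood at 3.55, 4.76 and 5.92 CPM against 17.4 to 98.3 CPM (median 55.8). For *Padi1* and *Il36g* no sample of #1 overlapped the other clones.

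Higher in *KEAP1* KO #1, besides the interferon list, was *Tlr3*, the endosomal sensor of double-stranded RNA, at 4.21, 3.61 and 4.62 CPM against 0.404 to 1.36 CPM (median 0.877) and 1.41, 2.61 and 1.76 CPM in LL2 WT, a log2 difference of 2.27 (SE 0.34, adjusted p = 0.000748). *Il15ra*, which presents IL-15, stood at 8.86, 6.63 and 10.33 CPM against 0.914 to 4.88 CPM (median 2.48), and was no longer apart without replicate 1 (1.86) or 3 (1.75) of *KEAP1* KO #1 or replicate 1 (1.88) or 2 (1.84) of #3. *Herc6*, a ubiquitin ligase of the interferon response, stood at 8.25, 6.36 and 6.52 CPM against 1.75 to 3.88 CPM (median 2.58), and was no longer apart without replicate 1 (1.23) of *KEAP1* KO #1 or replicate 2 (1.27) of #3. All 3 were higher in each sample of #1 than in the other 6.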
